A study of Mus musculus with 8 samples.

Results

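The genes described here encode proteins of the spliceosome and of the particles that package pre-mRNA. They were chosen by symbol, as all names in the files that begin with Snrp, Snrnp, Sf3a or Sf3b with a digit, Prpf with a digit, Srsf or Sfrs with a digit, or Hnrnp. These patterns found 73 of the 26608 listed symbols. Of them 40 are core spliceosome genes, 15 carry a serine/arginine-rich (SR) name and 18 are heterogeneous nuclear ribonucleoprotein (hnRNP) genes. Their levels were measured in 8 SAGE libraries of neural tube tissue from FVB mouse embryos at embryonic day 8.5. All embryos, those of both groups, came from diabetic dams. Of the libraries 4 were made from protrusions that had been cut by laser from the open neural plate, and 4 from open neural tube of normal shape, taken immediately in front of closure site 1, the place at which fusion of the neural folds starts. Protrusion 1 is labelled as separated, protrusions 2, 3 and 4 as attached. Whether each library came from its own embryo is not labelled, and protrusions 1 and 2 have titles with a common stem. P-values therefore measure the spread between libraries, part of which may be technical. The axial level of the protrusions is not labelled, so position along the body and protrusion cannot be told apart.

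Splicing removes introns from pre-mRNA. Small nuclear ribonucleoprotein particles (snRNPs) recognise the ends of the intron and the branch site, assemble on it in turn and form the catalytic core. SR proteins bind exons and generally favour the use of nearby splice sites, while hnRNP proteins coat pre-mRNA and often oppose that use. The balance between SR and hnRNP proteins is one known influence on alternative splicing, and splicing genes are highly expressed in proliferating embryonic tissue.

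SAGE counts a short tag that follows the CATG nearest the 3′ end of a transcript, so a transcript gives 1 tag whatever its length. The expected tag of each gene was read from its principal transcript in GENCODE annotation of GRCm38, a later build than the one the counts were made on. It lay in the 3′ UTR for 59 of the 73 genes, in coding sequence for 13 and at the start codon for 1. The tags of the genes that the results below turn on are given here, with the CATG in capitals, 5′ to 3′ on the transcribed strand. The first 5 belong to genes that differed most between the groups or came close to the threshold, Snrpb to the most abundant core gene, and the last 3 to genes with almost no reads.
Snrnp25: CATGgtggtgcaagacccgctgctct
Prpf38a: CATGgatgatgtggagtctagtgagg
Hnrnpab: CATGtctggaaaatgatcacagatcg
Hnrnpa2b1: CATGgacaagtatattctgctgccac
Srsf11: CATGtcgttggtcacatttgtactgt
Snrpb: CATGgagtctccctggattgtctggt
Hnrnpa1: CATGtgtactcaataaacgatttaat
Hnrnpk: CATGcttataataagcttgggatttt
Snrpn: CATGtactgggtctattttggtttta

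In GRCm38 the Snrnp25 tag lies at chr11:32205621-32205646 on the plus strand. It covers the start codon, with 25 of its 26 bases in coding sequence, because the principal transcript holds 1 CATG in all, 615 bases before its end. The Prpf38a tag, at chr4:108570179-108570204 on the minus strand, is coding and has an identical copy in 1 other annotated gene. Those of Hnrnpab (chr11:51600548-51600573, minus strand), Hnrnpa2b1 (chr6:51462017-51462042, minus strand) and Srsf11 (chr3:158010611-158010636, minus strand) lie in 3′ UTRs, as does that of Snrpb (chr2:130171813-130171838, minus strand). The Hnrnpab tag also overlaps Phykpl on the opposite strand, and the sources used here do not give whether counting used strand. Phykpl, listed under its older name Agxt2l2, stood at 2.4 to 5.77 CPM in protrusions and 0 to 2.27 CPM in the open neural tubes. Of the 73 tags, 63 had no copy within 2 mismatches in another gene, and those genes had a median level of 139 CPM, against 42.4 CPM for the 10 with such a copy.

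The libraries held 5668054 to 16655583 reads, and levels are given as CPM, counts scaled to a common library total. By counting error alone a 0 allows up to 3 reads, or 0.18 to 0.529 CPM depending on the library. Of genes averaging 5 to 20 CPM, 4.85% to 18.8% were at 0 per open neural tube and 0.0915% to 0.549% per protrusion. A 0 in open neural tube is thus no proof of a level below that limit. A difference in the number of genes seen touches every low level below. With all libraries thinned to the same total, 14409 to 15525 genes had a read in protrusions and 9920 to 11241 in open neural tube. Of the members that entered the test, 0 were listed at 0 in any protrusion and 2 to 6 in each open neural tube library. Summed markers of primitive streak and axial progenitors stood at 282 to 1235 CPM in protrusions, where 7 of 7 had reads, and at 5.23 to 47.5 CPM in the open neural tubes, where 5 of 7 had reads and Mixl1 and Evx1 were at 0. Those of paraxial mesoderm stood at 500 to 978 CPM in protrusions (6 of 6 with reads) and 66.3 to 383 CPM in the open neural tubes (5 of 6, with Msgn1 at 0). Of these 6, Tbx6, Dll3 and Msgn1 were higher in each attached protrusion than in every open neural tube. Meox1 (60.8 to 258 CPM in protrusions, 17.9 to 184 CPM in the open neural tubes) overlapped, as did Foxc2 and Tcf15. In the separated protrusion Tbx6 stood at 26.5 CPM, Dll3 at 6.71 CPM and Msgn1 at 0, while Meox1 stood at 258 CPM and Foxc2 at 175 CPM. Summed markers of neural progenitors overlapped, at 327 to 994 CPM in protrusions and 120 to 1123 CPM in the open neural tubes, with all 8 detected in both groups. For the attached protrusions (327 to 628 CPM) this overlap rested on open neural tube 13, at 120 CPM. Open neural tubes 9, 10 and 14 stood above them, at 1123, 828 and 971 CPM. Sox2 made up much of these sums in protrusions (158 to 583 CPM). In the attached protrusions Sox1 (4.01 to 6.85 CPM) and Pax3 (1.75 to 6.97 CPM) lay below every open neural tube (15.3 to 99.6 and 7.75 to 112 CPM), while Sox3 lay above (23.9 to 50.7 CPM in the attached protrusions, 0 to 3.18 CPM in the open neural tubes). The sums of endothelial, red cell, neural crest and surface ectoderm markers overlapped too. For endothelial markers only the separated protrusion, at 122 CPM, lay within the open neural tube range of 57.4 to 309 CPM. The attached ones, at 37.4 to 46.2 CPM, lay below it. Open neural tube 13 had the highest endothelial (309 CPM) and surface ectoderm (281 CPM) sums of all libraries. The part of these differences in the results below was not tested. In bulk tissue, fewer cells of a type and less RNA per cell cannot be told apart.

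The question was which splicing genes differ between protrusions and open neural tube. Snrnp25, a protein of the minor spliceosome, rose, and it was the 1 gene of the 67 tested that passed the threshold, an adjusted p below 0.05 in edgeR's quasi-likelihood test with Benjamini-Hochberg adjustment over all 11036 genes tested. None fell past it. That share, 1.49%, stands beside a background of 0.607% of all tested genes (31 higher, 0.281%, and 36 lower, 0.326%). At an unadjusted p below 0.05 there were 8 members higher and 7 lower, or 22.4%, beside 15.3% of all genes (7.02% higher, 8.33% lower). Among genes averaging 100 to 1000 CPM the share was 17.9% of members and 33.4% of all genes, and from 1000 CPM it was 50% of members and 40.5% of all genes, so the comparison with the background depended on abundance. The median log2 fold change, protrusion over open neural tube, was 0.01 over 37 core members, 0.02 over 14 SR members and 0.26 over 16 hnRNP members, against 0.08 over all genes. The 95% interval of the fold change lay within 2-fold either way for 29 of the 67 members (43.3%), against 19.3% of all genes, but the shares were closer at like abundance. They were 60.7% of members and 57% of all genes between 100 and 1000 CPM, and 60% of members and 66.4% of all genes from 1000 CPM. The 6 members not tested, since too few libraries held enough of their reads, were Prpf40b, Snrpg, Snrpn, Srsf5, Hnrnpa1 and Hnrnpk.

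**Figure D1:**
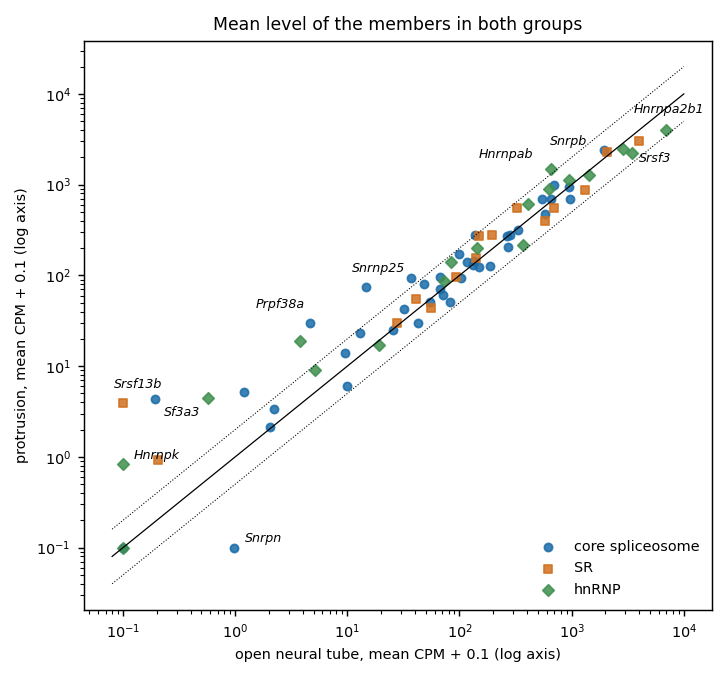
Mean level of each of the 73 genes in protrusions (vertical axis) and open neural tube (horizontal axis), in CPM plus 0.1 on log axes, with the class as symbol; the solid line marks equal levels and the dotted lines a 2-fold difference. Most genes above 20 CPM lie between the dotted lines, while Snrnp25 (75.3 CPM in protrusions, 14.6 CPM in the open neural tubes) and Hnrnpab (1484 CPM in protrusions, 651 CPM in the open neural tubes) lie above them.

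Members whose groups did not overlap numbered 9 with every protrusion higher and 6 with every protrusion lower. Together they made 22.4% of the tested members, while 13.4% of all tested genes were separated in this way. By abundance the share was 5.88% of members and 13.3% of all genes between 20 and 100 CPM, 21.4% of both between 100 and 1000 CPM, and 40% of members and 27.6% of all genes from 1000 CPM. All genes were mostly separated upwards (8.84% higher, 4.55% lower). Separation was most frequent among SR members, 5 of 14, followed by hnRNP members, 4 of 16, and core members, 6 of 37. The 5 SR members include Srsf13b, listed at 0 in every open neural tube. It is an older name of Srsf12, which is also among the 14. Srsf13b and the core member Sf3a3, both counted as higher, entered the test only through their reads in protrusions. These shares were not tested against each other. The spread within groups was like that of other genes. For members averaging at least 100 CPM the median coefficient of variation was 18.2% in protrusions and 17.8% in open neural tube, and for all such genes 18.9% and 21.3%.

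The summed level of the core spliceosome genes overlapped between the groups. It was 10185, 11743, 8575 and 9227 CPM in protrusions 1 to 4, and 8971, 9177, 9623 and 8710 CPM in open neural tubes 9, 10, 13 and 14. The means were 9932 ± 1376 CPM in protrusions and 9120 ± 386 CPM in the open neural tubes (SD, n = 4 each).

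The Sm proteins form a ring on the RNA of each major snRNP except U6. Snrpb, which encodes SmB, was the most abundant core gene in each of the 8 libraries. It stood at 2353, 3044, 1754 and 2442 CPM in protrusions and 1685, 1477, 2471 and 2164 CPM in the open neural tubes. The groups overlapped, and the log2 fold change was 0.22 ± 0.24 (SE, adjusted p = 0.754). Snrpe, for SmE, stood at 1156, 883, 910 and 1026 CPM in protrusions and 721, 610, 755 and 723 CPM in the open neural tubes. Every protrusion was higher, but by 0.41 ± 0.17 on the log2 scale, which did not pass (adjusted p = 0.264), and an identical copy of its tag lies in 1 other annotated gene. Snrpd1, for SmD1, averaged 204 ± 40.8 CPM in protrusions and 271 ± 48.8 CPM in the open neural tubes (SD, n = 4 each), with overlapping groups (log2 fold change −0.50 ± 0.23, adjusted p = 0.332).

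The ring holds its subunits in equal number, but their tags did not come at like levels. Snrpb averaged 2399 ± 528 CPM in protrusions and 1949 ± 452 CPM in the open neural tubes, while Snrpf averaged 3.24 ± 0.679 CPM in protrusions and 2.11 ± 2.86 CPM in the open neural tubes (SD, n = 4 each). Snrpg was listed at 0 in all 8 libraries. Tag counts of the same complex thus differed by gene far more than by group. Whether the low counts of Snrpf and Snrpg reflect low transcript levels was not tested. Snrpd3, for SmD3, averaged 691 ± 285 CPM in protrusions and 967 ± 248 CPM in the open neural tubes (SD, n = 4 each), with overlapping groups and a log2 fold change of −0.55 ± 0.31. The 8 ring genes together summed to 4295 ± 801 CPM in protrusions and 3894 ± 660 CPM in the open neural tubes (SD, n = 4 each). Snrpn encodes SmN, the close relative of SmB known from brain. It had 0 reads in every protrusion, and in open neural tube all of its 58 reads came from library 13. Its tag lies at chr7:59982563-59982588 on the minus strand, in the 3′ UTR.

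The U1 snRNP binds the 5′ splice site. Snrnp70, its U1-70K protein, varied within both groups, at 907, 980, 530 and 369 CPM in protrusions and 921, 850, 689 and 137 CPM in the open neural tubes. Its interval was correspondingly wide (log2 fold change 0.03, 95% interval −1.12 to 1.17). Snrpa, a U1 protein that binds a stem-loop of the RNA, was steady, at 131, 154, 134 and 149 CPM in protrusions and 102, 115, 127 and 119 CPM in the open neural tubes. All protrusions were above all open neural tubes, by 0.21 ± 0.18 on the log2 scale (adjusted p = 0.653), and copies of its tag exist in other genes. Snrpc, the third U1 protein listed, averaged 30.1 ± 10.4 CPM in protrusions and 42.9 ± 10.7 CPM in the open neural tubes (SD, n = 4 each; −0.61 ± 0.33, adjusted p = 0.44).

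The U2 snRNP carries SF3A and SF3B, which bind at the branch site. Sf3b1, the SF3B subunit that holds the branch site, stood at 593, 397, 414 and 483 CPM in protrusions and 540, 595, 526 and 661 CPM in the open neural tubes. The groups overlapped (log2 fold change −0.38 ± 0.18, adjusted p = 0.352). Sf3b4, among the 4 most abundant core genes in every library, averaged 935 ± 191 CPM in protrusions and 944 ± 142 CPM in the open neural tubes (SD, n = 4 each). Its log2 fold change of −0.09 had an interval of −0.51 to 0.33. Sf3a1, an SF3A subunit, was as even, at 274 ± 21.7 CPM in protrusions and 266 ± 41.6 CPM in the open neural tubes (SD, n = 4 each; interval −0.42 to 0.33). Its partner Sf3a2 stood at 310, 320, 237 and 237 CPM in protrusions and 166, 245, 58.1 and 78.1 CPM in the open neural tubes. Only the value of open neural tube 10 reached into the protrusion range (log2 fold change 0.95 ± 0.40, adjusted p = 0.281). Sf3a3 had 8, 39, 80 and 24 reads in protrusions and 2, 0, 1 and 1 reads in the open neural tubes. Every protrusion was higher, but the difference did not pass (adjusted p = 0.0856), and an identical copy of its tag lies in 1 other annotated gene. Sf3a3 entered the test only through its reads in protrusions.

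Sf3b3 was low in the separated protrusion and high in the attached ones. It stood at 23.4, 131, 128 and 88.5 CPM in protrusions 1 to 4, and at 31, 40.4, 35 and 39.5 CPM in the open neural tubes. With all protrusions the log2 fold change was 1.25 ± 0.44 (adjusted p = 0.196). For the attached protrusions alone it was 1.57 ± 0.24 and passed the threshold (adjusted p = 0.0252).

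The U4/U6.U5 tri-snRNP brings in the catalytic core. Prpf8, the U5 scaffold at the active site, stood at 130, 397, 348 and 253 CPM in protrusions and 293, 275, 226 and 336 CPM in the open neural tubes. The lowest value was that of the separated protrusion, and the means were 282 ± 117 CPM in protrusions and 283 ± 45.6 CPM in the open neural tubes (SD, n = 4 each; log2 fold change −0.10 ± 0.30, adjusted p = 0.928). None of the 8 tri-snRNP genes passed the threshold, and their fitted log2 fold changes ran from −0.80 for Prpf31 to 0.73 for Prpf4. Snrnp200, the U5 helicase that unwinds U4 from U6, averaged 123 ± 14.4 CPM in protrusions and 148 ± 35.8 CPM in the open neural tubes. Snrnp40, of U5, averaged 172 ± 30.5 CPM in protrusions and 98.9 ± 51.7 CPM in the open neural tubes (SD, n = 4 each), and both had overlapping groups.

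Proteins outside the particles include Prpf19, a ubiquitin ligase of the activated spliceosome, which averaged 699 ± 114 CPM in protrusions and 540 ± 58.9 CPM in the open neural tubes (SD, n = 4 each; log2 fold change 0.29 ± 0.18, adjusted p = 0.521). Prpf38a, which joins the spliceosome as it is activated, stood at 16.4, 38.1, 39.5 and 26.4 CPM in protrusions and 4.34, 7.41, 2.58 and 3.7 CPM in the open neural tubes. All protrusions were higher, the separated one least so. The log2 fold change was 2.66 ± 0.50, just short of the threshold (adjusted p = 0.0505). For the attached protrusions alone it was 2.86 ± 0.51 (adjusted p = 0.0364).

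The minor spliceosome removes a small class of introns with its own U11 and U12 particles. Snrnp25, a protein of the U11/U12 particle, stood at 32.2, 104, 91.9 and 73.1 CPM in protrusions and 14.9, 11.5, 15.9 and 16.4 CPM in the open neural tubes. The groups did not overlap. The separated protrusion was the lowest of its group and still above every open neural tube. The means were 75.3 ± 31.4 CPM in protrusions and 14.6 ± 2.2 CPM in the open neural tubes (SD, n = 4 each), a log2 fold change of 2.26 ± 0.38 (95% interval 1.43 to 3.09, adjusted p = 0.039). For the attached protrusions alone it was 2.51 ± 0.29 (adjusted p = 0.00976). The call was lost on leaving out any 1 of the other 7 libraries (adjusted p = 0.0531 to 0.118), although the fold change stayed between 2.09 and 2.36.

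The other members named for this particle did not pass the threshold. Snrnp35 stood at 68.5, 58.2, 27.2 and 49.8 CPM in protrusions and 73.9, 57.5, 83.3 and 115 CPM in the open neural tubes (log2 fold change −0.77 ± 0.35, adjusted p = 0.328). Its groups overlapped, as did those of Snrnp48, at 54.2, 48, 48.2 and 51.1 CPM in protrusions and 78.1, 59.5, 49.1 and 30.4 CPM in the open neural tubes (−0.20 ± 0.30, adjusted p = 0.828). Of the 6 partner genes of the minor spliceosome none had an unadjusted p below 0.05. The smallest p among them was that of Zcrb1, at 5.63 ± 2.05 CPM in protrusions and 10.5 ± 3.78 CPM in the open neural tubes (SD, n = 4 each; adjusted p = 0.561).

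**Figure D2:**
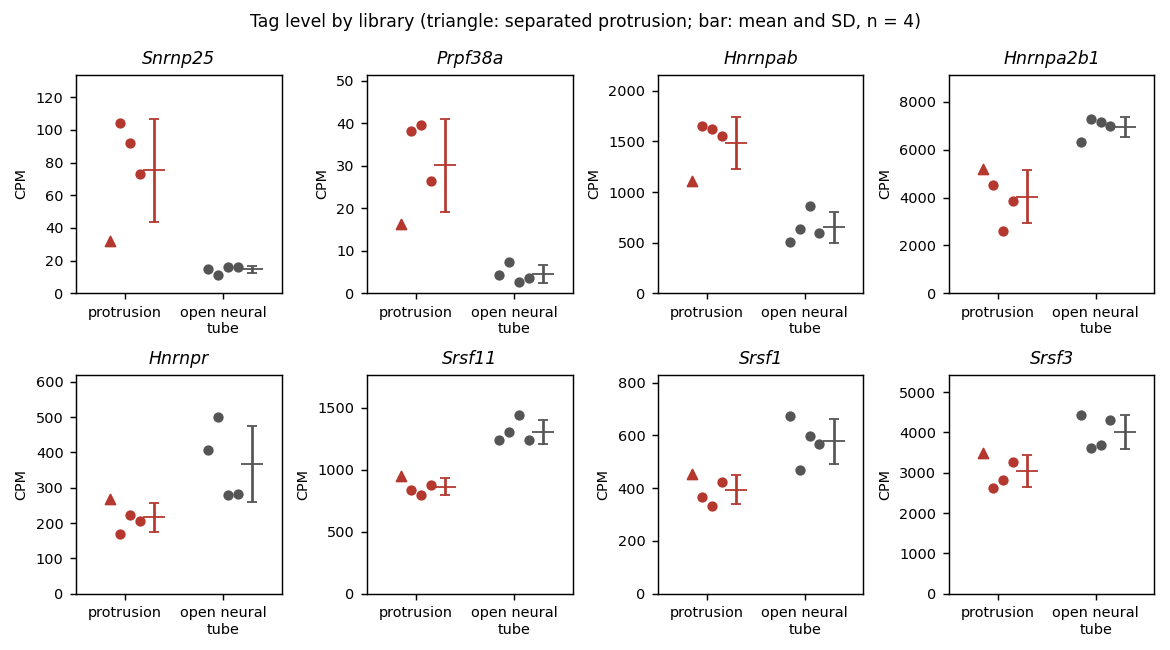
CPM of 8 members in each library, protrusions (red) left of open neural tubes (grey); the triangle is the separated protrusion, and the bar to the right of each group is the mean with its SD (n = 4). Snrnp25, Prpf38a and Hnrnpab are higher in every protrusion, Hnrnpa2b1, Hnrnpr, Srsf11, Srsf1 and Srsf3 lower in every protrusion.

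Several of the abundant SR genes had lower values in every protrusion, though none passed the threshold. The class summed to 9269, 8088, 8572 and 8575 CPM in protrusions and 10446, 9367, 9237 and 9788 CPM in the open neural tubes. The highest protrusion, the separated one, overlapped the lowest open neural tube, and the means were 8626 ± 486 CPM in protrusions and 9710 ± 544 CPM in the open neural tubes (SD, n = 4 each). Srsf3, Srsf2 and Srsf11 held the first 3 places in every library and 74.2% of the class's reads. None of the 14 tested members passed the threshold, and at an unadjusted p below 0.05 there were 4 lower and 1 higher. Among all 116 genes from 1000 CPM, 34 were lower and 13 higher at that p, and 22 had every protrusion lower.

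Srsf3, the smallest classical SR protein, which also serves mRNA export, stood at 3492, 2621, 2822 and 3267 CPM in protrusions and 4430, 3609, 3698 and 4318 CPM in the open neural tubes. Every protrusion was lower (log2 fold change −0.49 ± 0.16, adjusted p = 0.173). Without Srsf3 the class summed to 5576 ± 227 CPM in protrusions and 5696 ± 246 CPM in the open neural tubes (SD, n = 4 each), which overlapped. Srsf11, an SR-related protein also known as p54, stood at 949, 838, 793 and 876 CPM in protrusions and 1237, 1303, 1440 and 1242 CPM in the open neural tubes. The groups were well apart, and the spread within each was small. Its log2 fold change of −0.68 ± 0.15 did not pass (adjusted p = 0.0709). Srsf1, the founding SR protein, stood at 452, 366, 334 and 425 CPM in protrusions and 674, 470, 597 and 566 CPM in the open neural tubes. The groups were narrowly separate (log2 fold change −0.64 ± 0.19, adjusted p = 0.131).

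The other SR genes given lay on both sides of 0. Srsf2, whose protein acts both in splicing and in transcription elongation, averaged 2288 ± 223 CPM in protrusions and 2083 ± 298 CPM in the open neural tubes (SD, n = 4 each). Its log2 fold change of 0.05 had an interval of −0.29 to 0.39, well within 2-fold. Srsf10, a regulator that represses splicing when dephosphorylated, stood at 268, 273, 314 and 263 CPM in protrusions and 216, 139, 215 and 207 CPM in the open neural tubes. Every protrusion was higher (log2 fold change 0.42 ± 0.19, adjusted p = 0.329). Srsf7 averaged 550 ± 144 CPM in protrusions and 327 ± 119 CPM in the open neural tubes (SD, n = 4 each) with overlapping groups (0.64 ± 0.31, adjusted p = 0.366). Srsf9 averaged 549 ± 104 CPM in protrusions and 703 ± 70.6 CPM in the open neural tubes (SD, n = 4 each). Its separated protrusion, at 682 CPM, lay within the open neural tube range (−0.45 ± 0.18, adjusted p = 0.255). Srsf6 was close to even, at 154 ± 16.3 CPM in protrusions and 141 ± 30.4 CPM in the open neural tubes (SD, n = 4 each; interval −0.37 to 0.46).

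Srsf13b stood at 4.58, 4.88, 2.54 and 3.49 CPM in protrusions and was listed at 0 in all open neural tubes. Its mean in protrusions was 11.3-fold the level that 3 reads per open neural tube library stand for. That figure covers counting error only and is no lower bound on the fold change. The difference did not pass the threshold (adjusted p = 0.0785), and Srsf13b entered the test only through its reads in protrusions. In RefSeq the symbol is an older name of Srsf12, which the files list as well. Srsf12 averaged 29.6 ± 4.05 CPM in protrusions and 27.9 ± 14 CPM in the open neural tubes (SD, n = 4 each). Both rows thus refer to 1 gene, and the sources used here give no rule for splitting its reads.

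**Figure D3:**
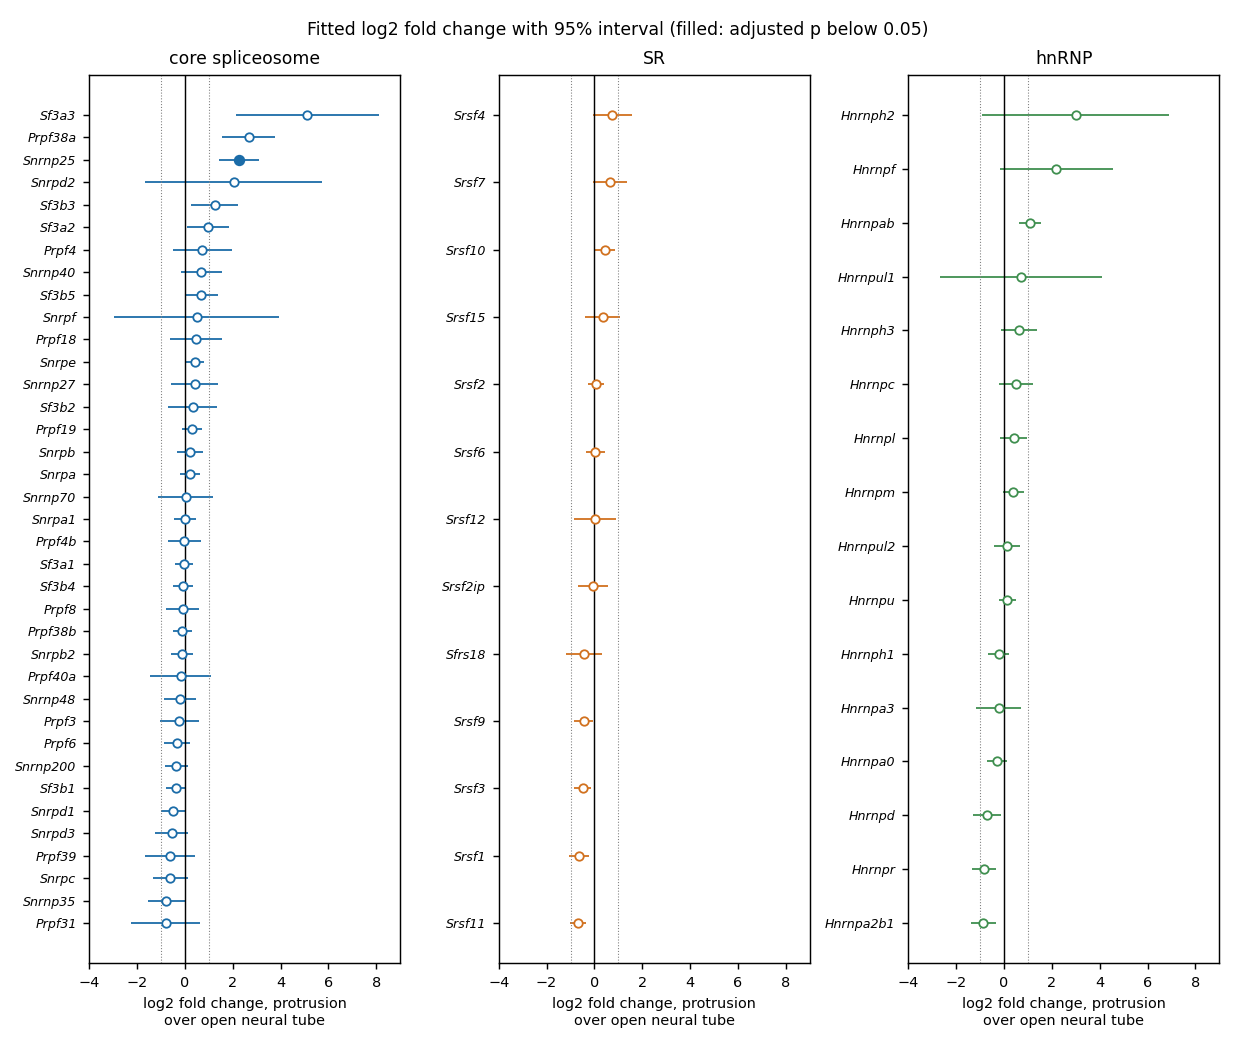
Log2 fold change, protrusion over open neural tube, of the tested members by class, with the 95% interval as a line; Snrnp25 (2.26, filled) is the 1 member with an adjusted p below 0.05, and dotted lines mark 2-fold. Srsf13b, at 0 in every open neural tube library, is not drawn. Most intervals of core members include 0, Prpf38a (2.66) lies next to Snrnp25, and Hnrnpab (1.10) and Hnrnpa2b1 (−0.86) lie on opposite sides of 0.

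hnRNP genes were the most abundant class in each library, and none passed the threshold. They summed to 17336, 15831, 12602 and 13450 CPM in protrusions and 18790, 18286, 18119 and 16857 CPM in the open neural tubes. The separated protrusion overlapped the lowest open neural tube and the attached protrusions lay below all of them. The ratio of hnRNP to SR reads was 1.47 to 1.96 in protrusions and 1.72 to 1.96 in open neural tube. Without Hnrnpa2b1 the class sum was 10773 ± 1174 CPM in protrusions and 11074 ± 1078 CPM in the open neural tubes (SD, n = 4 each), which overlapped.

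Hnrnpa2b1, which binds pre-mRNA and also sorts RNAs for transport, was the most abundant hnRNP gene in every library. It stood at 5171, 4533, 2584 and 3838 CPM in protrusions and 6311, 7276, 7163 and 7006 CPM in the open neural tubes. The groups did not overlap, and the protrusions spread more widely. The log2 fold change was −0.86 ± 0.23 (adjusted p = 0.0871). Hnrnpab, a relative that binds RNA and single-stranded DNA, stood at 1109, 1649, 1627 and 1552 CPM in protrusions and 511, 638, 862 and 592 CPM in the open neural tubes. Every protrusion was higher, the separated one least so. The log2 fold change was 1.10 ± 0.21, just short of the threshold (adjusted p = 0.0505), and for the attached protrusions alone 1.21 ± 0.20 (adjusted p = 0.0338).

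The opposite order of these genes shows in the make-up of the hnRNP reads. Hnrnpa2b1 took 29.8%, 28.6%, 20.5% and 28.5% of them in protrusions 1 to 4, and 33.6%, 39.8%, 39.5% and 41.6% in open neural tubes 9, 10, 13 and 14. The ratio of Hnrnpab to Hnrnpa2b1 was 0.214 to 0.63 in protrusions and 0.081 to 0.12 in open neural tube. Within the class Hnrnpab ranked 6th, 4th, 3rd and 4th in protrusions and 8th, 7th, 6th and 6th in open neural tube. Shares, ratio and ranks restate the levels of genes named partly for their small p, so they are no further evidence of a difference.

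**Figure D4:**
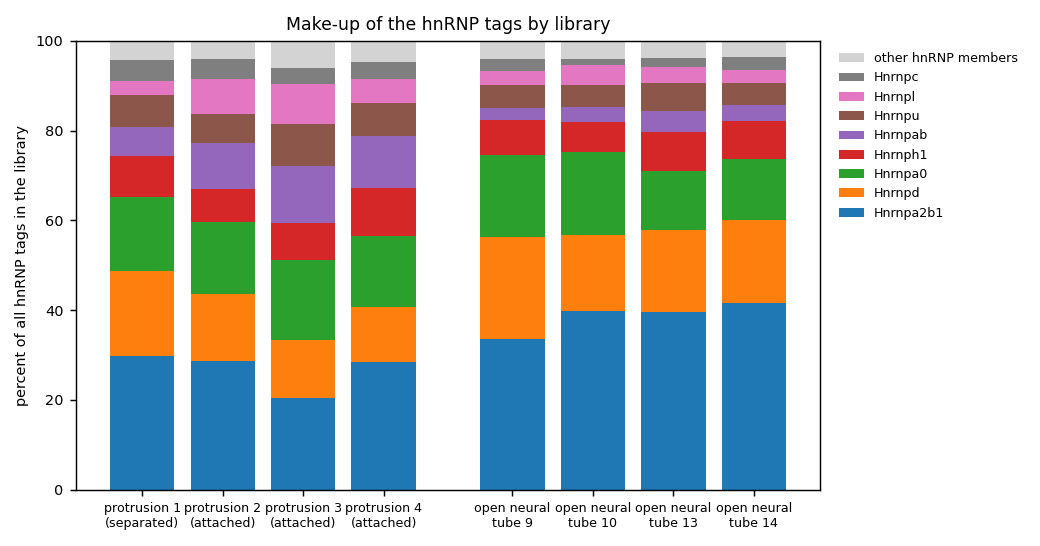
Percent of all hnRNP reads that each of 8 abundant hnRNP genes, and the others together, held in each library, protrusions left of open neural tubes. The lowest band, Hnrnpa2b1, spans 20.5% to 29.8% in protrusions and 33.6% to 41.6% in open neural tube.

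Hnrnpr, close kin of the mRNA-binding protein Syncrip, stood at 268, 170, 222 and 206 CPM in protrusions and 407, 500, 280 and 282 CPM in the open neural tubes. Every protrusion was lower, the separated one by a small margin (log2 fold change −0.85 ± 0.22, adjusted p = 0.0876). Hnrnpd, known as AUF1 and a binder of AU-rich elements that control mRNA decay, averaged 2221 ± 771 CPM in protrusions and 3443 ± 551 CPM in the open neural tubes (SD, n = 4 each). Its separated protrusion, at 3254 CPM, lay within the open neural tube range of 3095 to 4254 CPM (log2 fold change −0.71 ± 0.26, adjusted p = 0.208). Hnrnpa0 averaged 2460 ± 341 CPM in protrusions and 2871 ± 619 CPM in the open neural tubes (SD, n = 4 each), with overlapping groups (−0.31 ± 0.19, adjusted p = 0.512). Hnrnpu, a scaffold protein of nuclear RNA and chromatin, stood close to even at 1113 ± 127 CPM in protrusions and 951 ± 131 CPM in the open neural tubes (SD, n = 4 each; interval −0.23 to 0.49). Hnrnpc, a binder of uridine tracts, averaged 619 ± 175 CPM in protrusions and 409 ± 140 CPM in the open neural tubes (SD, n = 4 each), with overlapping groups (0.51 ± 0.32, adjusted p = 0.504). Hnrnpl, a binder of CA repeats, stood at 520, 1206, 1114 and 718 CPM in protrusions and 593, 801, 639 and 497 CPM in the open neural tubes. The separated protrusion and the attached protrusion 4 lay within the open neural tube range (0.40 ± 0.26, adjusted p = 0.529).

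Hnrnpm, a regulator of alternative exons, stood at 243, 186, 195 and 182 CPM in protrusions and 144, 156, 170 and 106 CPM in the open neural tubes. Every protrusion was higher, by less than 2-fold (log2 fold change 0.39 ± 0.20, adjusted p = 0.394). Hnrnpf, a binder of G-rich RNA, stood at 2.29, 28.8, 35.2 and 8.89 CPM in protrusions and 2.37, 0.176, 6.96 and 5.25 CPM in the open neural tubes. The separated protrusion lay within the open neural tube range and the attached ones above it (2.19 ± 1.06, adjusted p = 0.361).

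Hnrnpa1 and Hnrnpk encode some of the most abundant hnRNP proteins of most cells, yet their tags were nearly missing here. Hnrnpa1 had 0 reads in all 8 libraries. Hnrnpk had 0, 5, 14 and 8 reads in protrusions and 0 in every open neural tube. Both expected tags lie in the 3′ UTR, that of Hnrnpa1 at chr15:103244923-103244948 on the plus strand and that of Hnrnpk at chr13:58391710-58391735 on the minus strand. Neither has a copy within 2 mismatches in another annotated gene. The cause of the low counts was not tested, and the files give no usable level for these transcripts.

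The separated protrusion was set against the mean of the 3 attached ones as a difference of log2(CPM + 1), with no test, since it is 1 library. None of the 67 tested members was more than 2-fold higher in it, and 12 were more than 2-fold lower (17.9%). Among all tested genes 4.03% were higher by that much and 15.1% lower. The 12 comprised 8 core, 1 SR and 3 hnRNP members, and ran from Hnrnpf (−2.74) and Sf3b3 (−2.24) to Prpf38a (−1.02). Snrnp25 (−1.43), Prpf8 (−1.32) and Sf3a3 (−1.35) were among them. The only SR member was Srsf4, at 110 CPM in the separated protrusion and 280, 358 and 329 CPM in the attached ones. Cell markers differed between the separated and the attached protrusions too. Summed streak and axial progenitor markers stood at 282 CPM in the separated protrusion and 833 to 1235 CPM in the attached ones, with 6 of 7 lower in the separated one than in each attached one. Paraxial mesoderm markers summed to 500 CPM in the separated protrusion and 676 to 978 CPM in the attached ones, with 3 of 6 lower and 2 higher. Neural progenitor markers summed to 994 CPM in the separated protrusion and 327 to 628 CPM in the attached ones, with 6 of 8 higher and Sox3 at 0. In the separated protrusion endothelial markers summed to 122 CPM (6 of 8 higher, 2 lower), against 37.4 to 46.2 CPM in the attached ones. Neural crest markers summed to 54.2 CPM there (3 of 5 higher) and 24.9 to 34.5 CPM in the attached ones. Those of surface ectoderm summed to 63 CPM there (1 of 6 higher, 2 lower) and 78.7 to 165 CPM in the attached ones. Red cell markers, at 1.31 CPM, lay within the attached range of 1 to 46.8 CPM. The part of these markers in the result was not tested.

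**Figure D5:**
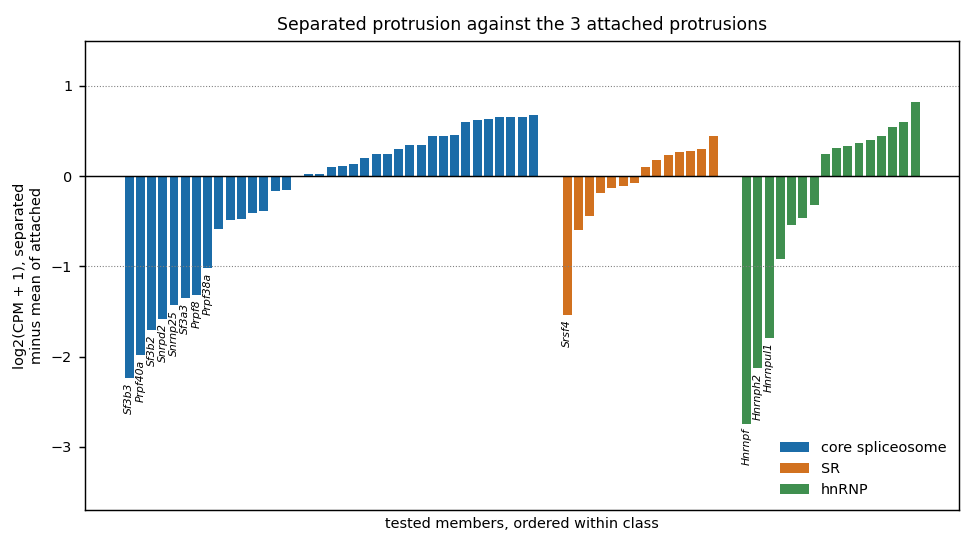
Difference of log2(CPM + 1) between the separated protrusion and the mean of the 3 attached protrusions, 1 bar for each tested member, ordered within class; dotted lines mark 2-fold. No bar passes 1, and 12 named members lie below −1, the lowest of them Hnrnpf at −2.74.

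When the separated protrusion was left out, 172 of all tested genes passed the threshold for attached protrusions against open neural tube (1.5%), 0.759% higher and 0.741% lower. Among them were 4 members, all higher in the attached protrusions, namely Snrnp25, Prpf38a, Sf3b3 and Hnrnpab.

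Genes that work with the spliceosome but carry other names were taken from 11 lists. Of their 157 symbols 152 were found and 139 tested, and 1 passed the threshold (0.719%, beside 0.607% of all tested genes). This was Ybx1, for the nucleic acid-binding protein YB-1, which rose. It stood at 1479, 942, 1386 and 1402 CPM in protrusions and 588, 760, 487 and 539 CPM in the open neural tubes. The groups did not overlap, and the log2 fold change was 1.05 ± 0.19 (adjusted p = 0.045). The call was lost on leaving out protrusion 3 or 4 or any open neural tube (adjusted p = 0.0531 to 0.148). At an unadjusted p below 0.05 there were 10 partner genes higher and 17 lower, or 19.4%, beside 15.3% of all genes (7.02% higher, 8.33% lower), and the median log2 fold change was −0.02.

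In each of the other lists the gene with the smallest p is given, and none of these passed. Of the branch site and U2 partners, Cherp averaged 236 ± 42.8 CPM in protrusions and 438 ± 98.5 CPM in the open neural tubes (log2 fold change −0.98 ± 0.21, adjusted p = 0.0709). Of the Prp19 complex partners, Snw1, a component of the activated spliceosome, averaged 392 ± 49.1 CPM in protrusions and 627 ± 33.1 CPM in the open neural tubes (−0.76 ± 0.16, adjusted p = 0.0693). Cdc40, a second-step splicing factor, averaged 5.84 ± 3.25 CPM in protrusions and was listed at 0 in every open neural tube (adjusted p = 0.074). It entered the test only through its reads in protrusions.

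Tra2b, an SR-related activator of exons, averaged 924 ± 166 CPM in protrusions and 1443 ± 191 CPM in the open neural tubes (log2 fold change −0.73 ± 0.19, adjusted p = 0.0893). Lsm5, of the ring on U6, averaged 777 ± 178 CPM in protrusions and 1212 ± 185 CPM in the open neural tubes (−0.72 ± 0.23, adjusted p = 0.158). Every protrusion was below every open neural tube for these genes, Cherp and Snw1, all of them above 100 CPM. The tri-snRNP partner Cd2bp2 was higher in every protrusion, at 99.1 ± 6.21 CPM in protrusions and 62 ± 10.4 CPM in the open neural tubes (0.59 ± 0.21, adjusted p = 0.196; SD and n = 4 in each case).

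In 3 further lists the leading gene had overlapping groups. Magoh, of the exon junction complex, averaged 111 ± 29.4 CPM in protrusions and 58.1 ± 18.4 CPM in the open neural tubes (adjusted p = 0.207). Smn1, which loads the Sm ring onto snRNA, averaged 385 ± 99 CPM in protrusions and 523 ± 45.2 CPM in the open neural tubes (adjusted p = 0.26). Celf4, a regulator known from neurons, averaged 9.24 ± 3.89 CPM in protrusions and 2.63 ± 3.1 CPM in the open neural tubes (SD, n = 4 each; adjusted p = 0.517).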

How the data were processed

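Per the labels' protocols, tissue was laser-microdissected from cryosections, and SOLiD SAGE libraries were made from 7 to 12 ng of total RNA each. The authors deposited whole-number counts per gene symbol, without normalization. The submitters' processing notes name build mm9; the sources used here give neither the mapper, nor how tags shared by several genes were counted, nor whether strand was used. Totals of 5668054 to 16655583 reads set the depth. PCR copies cannot be told from separate molecules, so limits from 3 reads cover counting error only.

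CPM was computed as count over library total. Differences were tested with edgeR 4.0.16 in R 4.3.3 (filterByExpr with a minimum count of 10, TMM factors, robust quasi-likelihood F test, 2-sided, Benjamini-Hochberg over all 11036 genes tested, threshold 0.05). The F statistic gave the standard errors and 95% intervals of fold changes (log2). Levels are CPM and fold changes are fitted, so the 2 need not match exactly. Groups came from the source names, numbers of open neural tubes from their titles, and those of protrusions from the order of listing. Alternatives used DESeq2 1.42.0, limma 3.58.1 and other scalings, filters, depths and sets of libraries. The scripts were tested on simulated data.

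Members, lists and tests were chosen with earlier results of these data known. Named were each member past the threshold, per class the 3 most abundant and the 3 with the smallest p in each direction, 15 members fixed by name, and per partner list the genes past the threshold or else that with the smallest p. Other genes given lie outside this rule and were chosen after their values were seen. Expected tags (CATG and the next 22 bases) were read from GENCODE M21 transcripts of GRCm38. Of the members 69 matched a current RefSeq symbol and 4 an older one. The 4 were Sfrs18 (now Pnisr), Srsf13b (Srsf12), Srsf15 (Scaf4) and Srsf2ip (Scaf11), all counted as SR members.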

Additional observations from a re-analysis of the deposited data

Results flagged for a closer look

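In 2 of 61 groups of 4 libraries checked, 1 library stood apart from the other 3, a pattern that chance gives in about 1 of 20 groups. That rate does not apply to Snrpn, since 3 libraries at 0 and 1 with reads always give this flag. Srsf10 in open neural tube library 10 was at 139 CPM, while the other open neural tubes were at 207 to 216 CPM. Snrpn in open neural tube library 13 was at 3.48 CPM, with 58 reads, while the other 3 were at 0. That library had the most reads of all. By depth alone, 3.48 CPM would give more than the 3 reads taken as the floor in each of the others, but that floor covers counting error only. Of genes averaging 5 to 20 CPM, 6.19%, 18.8% and 16% were at 0 in open neural tubes 9, 10 and 14, and 4.85% in 13. The cause of the Snrpn zeros was not tested.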

How the results depend on the processing

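With all 8 libraries, 9 other settings were tried. Snrnp25 passed in 8 of them, not with limma-voom and sample weights (adjusted p = 0.0814). The number of members past the threshold, 1 in the values above, was 3 with RLE, upper-quartile or no scaling factors (Hnrnpab, Prpf38a and Snrnp25), 3 with a filter of 20 CPM in 4 libraries (Hnrnpab, Snrnp25 and Srsf11), 2 without a low-count filter or with thinned counts (Hnrnpab and Snrnp25), 2 with limma-voom and sample weights (Hnrnpab and Srsf13b), 7 with limma-voom and 9 with DESeq2. The 9 were Hnrnpa2b1, Hnrnpab, Hnrnpr, Prpf38a, Sf3a3, Snrnp25, Srsf1, Srsf11 and Srsf13b. Over all genes the count of 67 became 103 with upper-quartile factors, 157 with the 20 CPM filter, 189 and 370 with limma-voom with and without sample weights, and 795 with DESeq2. Leaving out 1 library at a time gave 1 to 172 genes and 0 to 4 members, 0 without protrusion 2, 3 or 4 or open neural tube 9, 10 or 14. The 1 member without open neural tube 13 was Hnrnpab. Medians of the log2 fold change then ran from 0.01 to 0.18 over core and 0.01 to 0.22 over SR members, and members without overlap numbered 15 to 25. The hnRNP median was 0.42 without a low-count filter, where the median of all genes was 0.47, and that of all genes was 0.35 with limma-voom. Leaving out both protrusion 1 and open neural tube 13, a setting chosen after seeing the data, gave 211 genes, 4 members (Hnrnpab, Prpf38a, Sf3b3 and Snrnp25) and 29 members without overlap. Leaving libraries out makes separation easier for any gene, and the share of all genes without overlap is not given for these settings. The counts of members without overlap are thus no result about the members. Partner genes past the threshold, 1 above, numbered 2 with RLE, upper-quartile or no scaling factors (Ptbp2 and Ybx1), 4 with the 20 CPM filter (Cherp, Ptbp2, Snw1 and Ybx1), 6 with limma-voom, 11 with DESeq2 and 0 to 3 with 1 library left out, settings added for them after seeing the data. Ybx1 passed in 8 of the 9 with all libraries, not with limma-voom and sample weights (adjusted p = 0.0583). No result that passed the threshold changed sign. The cause of these changes was not tested. No paired analysis was possible because the groups share no replicate numbers. By counting error alone a 0 allows a level of 0.18 to 0.529 CPM at these depths. Zeros in open neural tube may stand for higher levels.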
